A study of Homo sapiens with 72 samples.

Results

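Dimethylation of lysine 4 of histone H3 (H3K4me2) was compared between bryostatin-treated and untreated NALM6 cells, a precursor B acute lymphoblastic leukemia line. The comparison used all 6 Cut&Tag libraries of this mark and line among the 54 libraries of the study that have a peak file. The 3 untreated libraries came from cells cultured without drug, and the 3 treated libraries from cells of the same line given 1 nM bryostatin, overnight per the labels and for a day per the study's methods. Peaks had been called with SEACR (a caller for sparse chromatin coverage) at its stringent setting in each library, and peaks that overlapped by at least 1 bp were joined, which gave 13338 regions. Replicates 2 and 3 of each group were used for signal. Replicate 1 was deposited on another scale with short peaks, and was used for the presence of a peak only. NALM6 is a single established line, and nothing stated that replicates were separate cultures, so p-values measure the spread between these libraries.

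Bryostatin is a macrolactone that binds the diacylglycerol site of protein kinase C (PKC), the enzyme family that couples antigen receptors to the ERK and NF-kB pathways. H3K4me2 is deposited around active and poised gene starts and at enhancers. It commonly flanks the trimethylated core (H3K4me3) of a promoter, and in lymphoid cells wide domains of H3K4 methylation are known at lineage genes. Cut&Tag cuts and tags the DNA beside the antibody-bound histone, so the total signal of a region depends on both its height and its called length.

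The sequences below show what lay under the highest point of the regions that the results turn on. They are exon-free stretches of the 300 bp window around that point in bryostatin replicate 2, from hg38, forward strand. FCMR, PHF21A, SYK and IKZF1 had a higher total signal after bryostatin at their starts. The total was lower in a region over an exon of ADCY7, in an intron of NSG1 and at the start of NKAIN4. None of these changes in total passed adjustment in the main test given below. PI16 had a peak only in treated libraries. Capitals mark matches, on either strand, to the searched motifs of AP-1 (TGANTCA), CRE (TGACGTCA), NF-kB (GGGANTTTC), EGR (GCGGGGGCG), RUNX (TGTGGT), EBF (CCCNNGGG), PU.1 (GAGGAAGT), E-box (CAGCTG), IRF (GAAANNGAA) and DUX4 (TAATCTAAT).
FCMR, chr1:206923248-206923435: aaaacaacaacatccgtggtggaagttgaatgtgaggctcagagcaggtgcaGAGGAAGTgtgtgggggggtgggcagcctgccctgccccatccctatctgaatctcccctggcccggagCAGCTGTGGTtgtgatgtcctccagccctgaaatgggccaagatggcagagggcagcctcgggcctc
PHF21A, chr11:46119391-46119690: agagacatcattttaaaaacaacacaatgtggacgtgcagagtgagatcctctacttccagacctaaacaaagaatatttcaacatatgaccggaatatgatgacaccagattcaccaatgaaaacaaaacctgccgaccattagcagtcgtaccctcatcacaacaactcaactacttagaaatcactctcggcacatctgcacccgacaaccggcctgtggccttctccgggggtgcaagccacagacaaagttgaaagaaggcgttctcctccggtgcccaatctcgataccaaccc
SYK, chr9:90801566-90801786: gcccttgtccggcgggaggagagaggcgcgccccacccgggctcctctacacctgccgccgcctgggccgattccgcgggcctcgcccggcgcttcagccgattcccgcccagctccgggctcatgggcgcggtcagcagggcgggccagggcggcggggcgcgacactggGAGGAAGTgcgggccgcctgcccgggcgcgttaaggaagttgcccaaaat
IKZF1, chr7:50304956-50305255: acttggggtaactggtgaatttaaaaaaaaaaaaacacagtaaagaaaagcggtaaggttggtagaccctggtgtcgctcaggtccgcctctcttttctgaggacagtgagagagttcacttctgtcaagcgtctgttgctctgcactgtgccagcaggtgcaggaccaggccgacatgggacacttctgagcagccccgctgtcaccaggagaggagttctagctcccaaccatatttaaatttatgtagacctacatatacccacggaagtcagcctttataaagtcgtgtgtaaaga
ADCY7, chr16:50297576-50297875: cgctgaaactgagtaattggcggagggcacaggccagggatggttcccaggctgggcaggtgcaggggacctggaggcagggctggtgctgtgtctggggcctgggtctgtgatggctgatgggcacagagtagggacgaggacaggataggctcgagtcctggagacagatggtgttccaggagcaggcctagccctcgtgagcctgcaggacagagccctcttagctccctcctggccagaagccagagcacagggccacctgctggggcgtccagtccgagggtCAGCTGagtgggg
NSG1, chr4:4406856-4407155: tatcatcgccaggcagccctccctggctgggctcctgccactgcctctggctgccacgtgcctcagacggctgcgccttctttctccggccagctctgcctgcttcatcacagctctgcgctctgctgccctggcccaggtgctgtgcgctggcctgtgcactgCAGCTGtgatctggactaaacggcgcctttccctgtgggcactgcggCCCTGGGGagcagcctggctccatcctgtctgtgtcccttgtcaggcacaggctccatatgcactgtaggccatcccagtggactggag
NKAIN4, chr20:63249296-63249595: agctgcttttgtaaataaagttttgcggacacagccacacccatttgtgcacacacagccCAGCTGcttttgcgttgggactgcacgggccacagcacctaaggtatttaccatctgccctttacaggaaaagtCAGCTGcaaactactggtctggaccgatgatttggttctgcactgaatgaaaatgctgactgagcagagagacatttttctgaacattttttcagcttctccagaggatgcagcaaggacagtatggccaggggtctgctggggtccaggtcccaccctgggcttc
PI16, chr6:36955956-36956255: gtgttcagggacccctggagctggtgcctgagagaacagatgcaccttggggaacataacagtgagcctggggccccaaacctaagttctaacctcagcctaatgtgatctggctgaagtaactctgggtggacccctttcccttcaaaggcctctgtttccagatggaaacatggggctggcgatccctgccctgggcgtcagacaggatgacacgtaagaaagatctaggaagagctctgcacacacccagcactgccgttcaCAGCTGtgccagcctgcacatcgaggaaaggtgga
The FCMR stretch held a PU.1 match and an E-box match that overlaps a RUNX match, and the SYK stretch held a PU.1 match. The PHF21A and IKZF1 stretches held none of the searched letters. In NKAIN4 both matches were E-boxes, and in NSG1 an E-box and an EBF match were present.

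The 4 libraries used for signal differed in depth, read from the step between neighbouring coverage values. Untreated replicate 2 had 23.0 M mapped reads and untreated replicate 3 had 8.24 M, against 21.2 and 23.4 M in bryostatin replicates 2 and 3. SEACR called 9192 and 11663 peaks in these untreated libraries and 12332 and 12157 in the treated ones, while replicate 1 had 7130 untreated and 7891 treated peaks. A peak lay within 1 kb of the start of 38.9% ± 10.2 of the 20033 protein-coding genes without drug and of 44.2% ± 13.0 with it (SD, n = 3 each). The difference was smaller than the spread over all 3 libraries of a group, which includes replicate 1 on its own scale (exact two-sided permutation test, p = 0.5, smallest possible 0.1). The treated library had the larger share in 3 of 3 numbered pairs. With replicates 2 and 3 alone the difference was 7.0 percentage points, with an SD of at most 3.48 within a group (exact permutation p = 0.333, the smallest possible for 2 against 2). All 12 precursor B markers, among them CD79A, PAX5, VPREB1 and DNTT, had a start region called in all 4 libraries. Of 6 T cell genes that held for CD247 alone, of 6 erythroid genes for TFRC alone, and of 6 myeloid and 6 epithelial genes for none.

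Signal was tested in the 8891 regions called in all 4 libraries. Each total was divided by the median tested region of its library, so 1 is the level of the typical region. No region passed at an adjusted p of 0.05 in either direction (0% of tested regions, limma with Benjamini-Hochberg adjustment, smallest adjusted p = 0.0721). At an unadjusted p under 0.05 there were 426 higher regions (4.79%) and 824 lower regions (9.27%). Both treated libraries lay above both untreated libraries in 20.8% of the regions and below them in 27.4%. With so few libraries, part of the regions fall in such an order without any effect, so these are not shares of changed regions. When the replicate number was kept as a block, 34 regions were higher (0.382%) and 135 lower (1.52%) at the adjusted threshold. Leaving out untreated replicate 2 or 3 left 1 untreated library, with the spread taken from the treated pair alone. Calls of these fits are therefore not counted. The median log2 change was -0.03 without untreated replicate 2, where the library left had 8.24 M mapped reads. It was -0.01 without untreated replicate 3. In simulated data of this size the test without the block recovered 82% of changes of 1 and 17% of changes of 0.5 on the log2 scale. That simulation gave all 4 libraries an equal spread, without differences in depth or GC content, so recovery in the real libraries is not known.

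The 8 regions with the smallest p among those higher after bryostatin all lay at gene starts. They belong to FCMR, the Fc receptor for IgM on B cells, PAG1, a membrane adaptor that recruits the kinase CSK, DNTT, the terminal transferase of V(D)J recombination, and XBP1, a transcription factor of the unfolded protein response and of plasma cells. SMAD1, which transmits BMP signals, PKD2, a cation channel, NUP153, a nuclear pore protein, and PHF21A, a reader of unmethylated H3K4, make up the rest. Their log2 changes ran from 0.63 to 1.20, and all 8 had an adjusted p of 0.0721 without the block and 0.0353 with it.

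The SMAD1 region (chr4:145480091-145488070) was at 0.583 and 0.471 times the median region in untreated replicates 2 and 3, and at 1.10 and 1.33 times it in the treated ones. By the rule that chose these regions the groups do not overlap at any of them, and the log2 change of SMAD1 was 1.20 ± 0.15 (SE), a 2.30-fold difference. The XBP1 region (chr22:28790921-28803510) went from 1.11 and 1.44 times the median to 2.30 and 2.65 times it. Its log2 change was 0.97 ± 0.14 (SE). At FCMR (chr1:206917161-206925980) the totals were 1.17 and 1.22 without drug and 2.02 and 2.29 with it, a log2 change of 0.85 ± 0.10 (SE). At DNTT (chr10:96294591-96309460) they were 1.75 and 1.92 without drug and 2.74 and 2.92 with it, a log2 change of 0.63 ± 0.09 (SE).

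NUP153 (chr6:17700161-17707350) was at 0.546 and 0.565 times the median without drug and at 1.01 and 1.05 times it with it, a log2 change of 0.89 ± 0.11 (SE). PKD2 (chr4:88006501-88015220) was at 0.712 and 0.687 against 1.38 and 1.19, with a log2 change of 0.87 ± 0.11. The untreated values of both genes were below the median region and the treated values above it. PAG1 (chr8:81105801-81113390) was at 1.15 and 1.17 against 1.84 and 2.01, and PHF21A (chr11:46118491-46123190) at 0.745 and 0.766 against 1.26 and 1.25. Each of these had a log2 change of 0.73.

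The called domains of these starts also differed in length. At XBP1 the called length was 3160 and 3370 bp in the untreated libraries and 12310 and 11350 bp in the treated ones. At FCMR it was 4690 and 2340 bp against 7920 and 8710 bp, and at DNTT 10090 and 6060 bp against 14730 and 14870 bp. At each of the 8 starts the called domain was longer in both treated libraries than in both untreated ones. The mean signal per called base moved the other way at XBP1, where its log2 change was -0.49, and at NUP153 (-0.74), PKD2 (-0.34), PAG1 (-0.30) and FCMR (-0.08). It had the sign of the total at SMAD1 (0.12), PHF21A (0.26) and DNTT (0.10). The maximum signal had log2 changes of 0.62 at PHF21A, 0.50 at NUP153, 0.46 at FCMR, 0.16 at PAG1, 0.07 at PKD2 and 0.03 at SMAD1, and of -0.14 at XBP1 and -0.17 at DNTT. None of these mean or maximum values passed adjustment.

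Over all tested regions the median called length was 3210 and 2150 bp in untreated replicates 2 and 3 and 3360 and 3430 bp in the treated libraries. In the 426 higher regions it was 3460 and 1980 bp against 4680 and 4720 bp. In the 824 lower regions it was 3550 and 2470 bp against 3255 and 3350 bp. The part of depth and of called length in the changes was not tested.

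**Figure D1:**
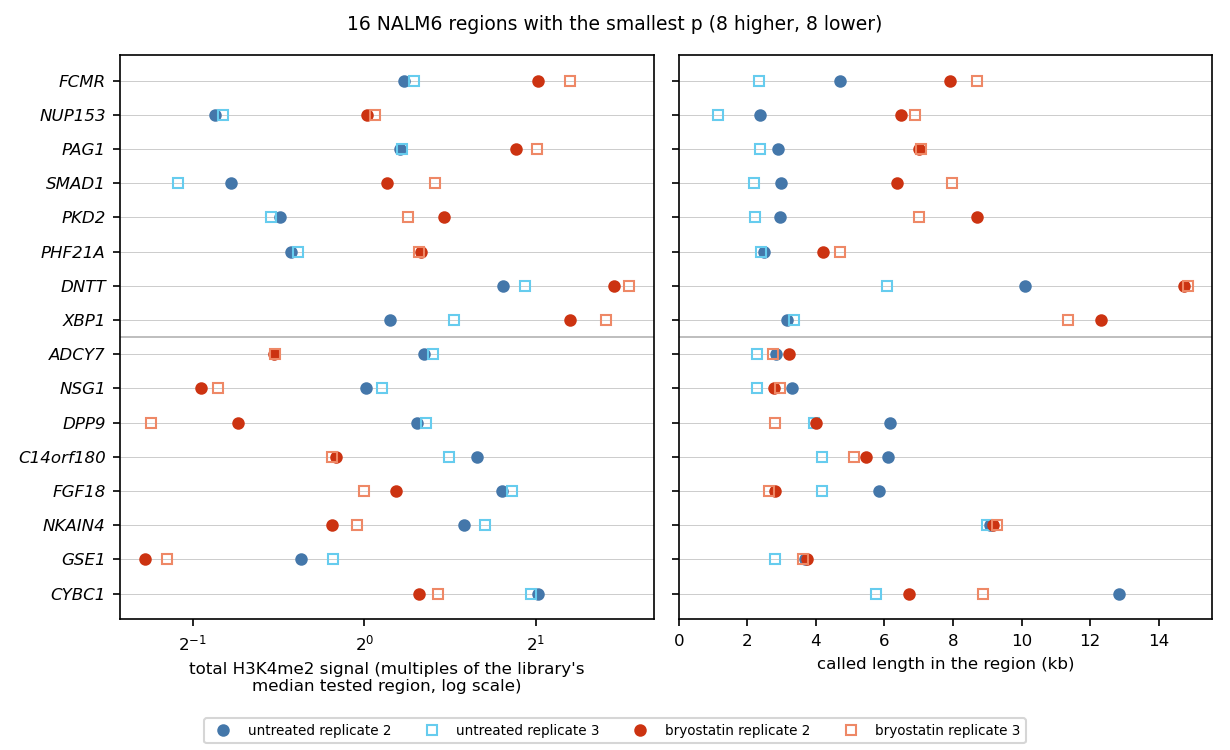
Total H3K4me2 signal in multiples of each library's median tested region (left, log axis) and called length in kb (right) for the 8 higher and 8 lower regions, one symbol per library. The 8 upper regions have longer called domains in both bryostatin libraries, and most lower regions differ in total with like lengths.

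Among the 8 lower regions with the smallest p, 4 lay at gene starts, 2 within introns, 1 over an exon and 1 between genes. The region over ADCY7, an adenylyl cyclase of hematopoietic cells (chr16:50296271-50299760), was at 1.28 and 1.32 times the median without drug and at 0.695 and 0.698 times it with bryostatin. Its log2 change was -0.90 ± 0.10 (SE). A region at a start within DPP9, a dipeptidyl peptidase (chr19:4692011-4698300), was at 1.24 and 1.28 without drug and at 0.600 and 0.422 with it, and its log2 change was -1.32 ± 0.17 (SE). In an intron of NSG1, which encodes an endosomal protein best known from neurons (chr4:4405811-4409220), the totals were 1.00 and 1.07 against 0.516 and 0.554, a log2 change of -0.96 ± 0.11 (SE). GSE1, a partner of histone deacetylase complexes, had an intronic region (chr16:85569131-85573090) at 0.773 and 0.882 against 0.411 and 0.450. GSE1 had a log2 change of -0.94 ± 0.13 (SE).

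The starts of FGF18, a fibroblast growth factor, and NKAIN4, a membrane partner of the sodium pump, had log2 changes of -0.74 ± 0.10 and -0.76 ± 0.10 (SE). The start shared by CYBC1, a chaperone of the phagocyte oxidase, and HEXD, a hexosaminidase, had one of -0.62 ± 0.09. The last region lay between genes, 186334 bp from the start of C14orf180, and its log2 change was -0.75 ± 0.10. In both FGF18 and NKAIN4 the treated values, 1.14 and 0.997 and 0.878 and 0.972, were below the untreated ones, 1.75 and 1.82 and 1.50 and 1.63. All 8 had an adjusted p of 0.0721, and of 0.0353 with the block. Unlike the higher starts, ADCY7, NSG1, GSE1 and NKAIN4 kept a like called length, and there the maximum signal had log2 changes from -0.88 to -0.78. At NKAIN4, for instance, 9090 and 8990 bp were called without drug and 9180 and 9290 bp with it. At FGF18 the called length was 5850 and 4190 bp against 2800 and 2630 bp, and its mean signal per base had a log2 change of 0.52.

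Position and base composition moved with the change. The 7874 tested regions at gene starts had a median log2 change of -0.01, with 5.00% higher and 6.62% lower at an unadjusted p under 0.05. The 1017 regions away from starts had a median of -0.18, with 3.15% higher and 29.8% lower. Regions over exons had the largest share of lower regions, 41.8% of 244, against 27.9% of 355 in introns and 23.2% of 332 between genes. The tested regions were also split into 5 equal groups by GC content, and the median log2 change went from 0.11 in the group with the lowest GC to -0.11 in that with the highest. In the lowest group 13.9% were higher and 2.59% lower, and in the highest 0.787% were higher and 18.2% lower.

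The same gradient can be read library by library, from the same totals. The median centred log2 total of the highest GC group exceeded that of the lowest by 0.63 and 0.83 in untreated replicates 2 and 3, and by 0.47 and 0.49 in the treated libraries. With the change corrected for GC by a spline, a setting added after the data had been seen, the GC groups had medians from 0.00 to 0.03. The regions away from starts then still had a median of -0.14 with 26.7% lower, and no region passed adjustment. The part of base composition in the changes was not tested further. The corrected log2 changes of the named regions kept their sign, at 0.96 for SMAD1, 0.78 for XBP1, 0.36 for DNTT, -0.78 for ADCY7 and -1.28 for DPP9.

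**Figure D2:**
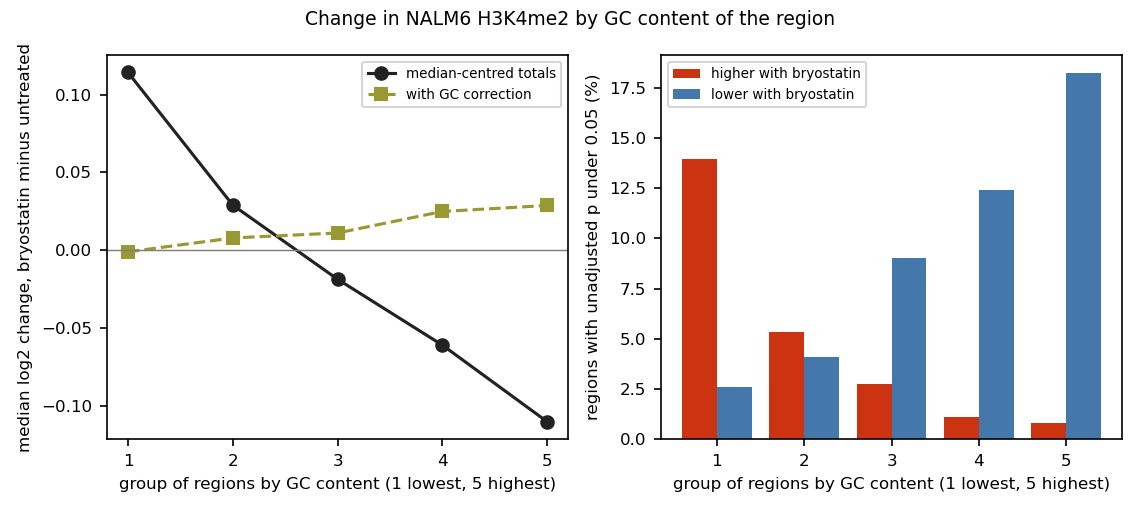
Median log2 change (left) and percent of regions at an unadjusted p under 0.05 (right) for the 8891 tested regions in 5 equal groups by GC content. The centred change goes from 0.11 to -0.11 across the groups and lies between 0.00 and 0.03 after the GC correction.

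The motif letters were counted as a description, in the 300 bp windows around the highest point of the peak in bryostatin replicate 2. For lower regions this point comes from the group with the lower signal, and the untreated highest point may lie elsewhere. Among the 521 lower regions at starts, 34.4% held the E-box letters, 38.2% the EBF letters and 15.5% the RUNX letters. The 394 higher regions at starts held them in 17.8%, 25.6% and 8.12%. In all 7874 tested regions at starts the shares were 20.3%, 32.0% and 9.26%. Away from starts the E-box letters were in 41.9% of the 303 lower and 43.8% of the 32 higher regions. The EBF letters were in 40.9% and 21.9% of these, and the RUNX letters in 26.1% and 21.9%. In all 1017 tested regions away from starts the E-box, EBF and RUNX shares were 35.4%, 36.3% and 22.7%. The AP-1 letters, bound by FOS and JUN proteins that act below PKC, were in 4.82% of the higher and 6.72% of the lower starts, against 4.09% of all tested starts. Away from starts the AP-1 letters were in 3.1% of the higher and 6.60% of the lower regions, against 8.55% of all tested ones.

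Genes of the pathways that bryostatin is known to engage were read at their start regions. No member of any list passed adjustment without the block, and the median over all tested regions was -0.02. At an unadjusted p under 0.05, 4.79% of all tested regions were higher and 9.27% lower, and the counts over these short lists are to be read beside those shares, as a description of the members. Of the 10 AP-1 factor genes tested, none had an unadjusted p under 0.05, and the log2 changes ran from -0.18 at BATF3 to 0.09 at JUND, with JUNB at -0.15, FOS at -0.06 and JUN at 0.03. Among 9 early response genes, EGR1, a zinc finger factor induced by ERK signalling, was higher and IER2 lower at that level. The EGR1 start region was at 1.94 and 1.81 times the median without drug and at 2.78 and 2.68 times it with bryostatin. Its log2 change was 0.54 ± 0.08 (SE, adjusted p = 0.0721, with the block 0.0353). The called length was 3590 and 3050 bp against 5730 and 7240 bp, and the log2 changes of mean and maximum signal were -0.02 and -0.01.

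Among 9 ERK feedback genes the phosphatase gene DUSP1 was the one past an unadjusted p of 0.05, at 0.29 ± 0.08 on the log2 scale (SE) for the total, -0.55 for mean and -0.25 for maximum signal. SPRY1 was at 0.13, and the list median was 0.10. Of 10 NF-kB genes tested, TRAF1 (0.36) and TNFAIP3 (0.28) were higher at that level (4.79% of all tested regions were), REL was at 0.29 and NFKBIA at -0.05, and the median was 0.00. Of the 13 tested genes for PKC isoforms and diacylglycerol handling, PRKCE was higher at 0.19 and PRKCA had the lowest value, -0.20, in a list with a median of -0.03.

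B lineage genes were spread on both sides. The 16 tested lineage factor genes had a median log2 change of 0.12, and IKZF1, the Ikaros gene, and ETV6 were higher at an unadjusted p under 0.05. IKZF1 went from 2.75 and 2.84 times the median to 3.65 and 4.27 times it, with 7010 and 4290 bp called without drug and 11330 and 10310 bp with it. Its log2 change was 0.50 ± 0.10 (SE, adjusted p = 0.106, with the block 0.0370), and those of mean and maximum signal were -0.08 and -0.12. IKZF2 had a like log2 change with a wider error, 0.50 ± 0.23 (SE). The log2 changes at the factor genes PAX5 and EBF1 were -0.03 and 0.11. Of 7 tested precursor B genes, DNTT was the highest and VPREB3, which helps assemble the pre-B cell receptor, the lowest, at -0.32 ± 0.09 (SE).

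Among 15 genes of B cell receptor signalling, SYK, BTK and PIK3R1 were higher and none lower at an unadjusted p under 0.05, against 4.79% higher and 9.27% lower of all tested regions. SYK, the kinase that couples the receptor to its effectors, was at 0.861 and 0.958 times the median without drug and at 1.36 and 1.63 times it with it. The called length was 2050 and 1430 bp without drug and 4980 and 7110 bp with it. Its log2 change was 0.71 ± 0.12 (SE, adjusted p = 0.0741, with the block 0.0353), while its mean signal per base had one of -0.69. Of 12 surface antigen genes, CD40 (0.46) and MME (0.53) were higher and CD81 (-0.39) lower at that level, beside the same 4.79% and 9.27%. The log2 change was 0.03 ± 0.10 (SE) at the start of CD22, an antigen that the study followed on the cell surface.

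Of 10 adhesion genes tested, ITGB2, the beta chain of the leukocyte integrins, and SELPLG, the selectin ligand gene, were lower at an unadjusted p under 0.05, as were 9.27% of all tested regions. Their log2 changes were -0.70 ± 0.22 and -0.44 ± 0.10 (SE). ICAM1, a ligand of these integrins, was at -0.06. None of the 13 tested ligand genes of innate receptors reached that level (4.79% of all tested regions did upward and 9.27% downward), and they lay between -0.18 at ULBP3, with ULBP2 at -0.17, and 0.08 at BAG6. Among 13 genes of cytoskeleton and adaptors LCP2, ARHGAP25 and SH2B3 were higher (4.79% of all tested regions were), with log2 changes of 0.41, 0.32 and 0.25.

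A peak was gained in 128 regions (0.96% of all 13338), which had one in 3 of 3 treated libraries and in 0 of 3 untreated libraries, and no region was lost by the same rule (0%). Of the 128, 98 lay at a gene start, 18 in introns, 4 over exons, 2 in noncoding genes and 6 between genes. They were weak: their median total was 0.425 and 0.418 times the median region in the treated libraries, and the highest was 0.767. The lowest total that was called at all was 0.535 in untreated replicate 2, 0.391 in untreated replicate 3, and 0.325 and 0.333 in the treated libraries. In 107 of the 128 regions both treated libraries were below the lowest total called in untreated replicate 2, and no region of that size was called there.

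When each library was limited to its 7130 highest peaks, 25 regions were gained and 25 lost, and 1 of the 128, at CCDC26, was among them. A rule added after the data had been seen asked for a peak above 0.535 in both replicates 2 and 3 of a group. The other group had to have no peak of any size in any of its libraries. By it 46 regions were gained (0.345%) and 2 lost (0.015%). These counts are not like for like. Peaks were called down to 0.325 and 0.333 in treated replicates 2 and 3, and to 0.535 and 0.391 in the untreated ones. Without bryostatin replicate 1 the count of gained regions was 956, and without untreated replicate 3 it was 328.

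**Figure D3:**
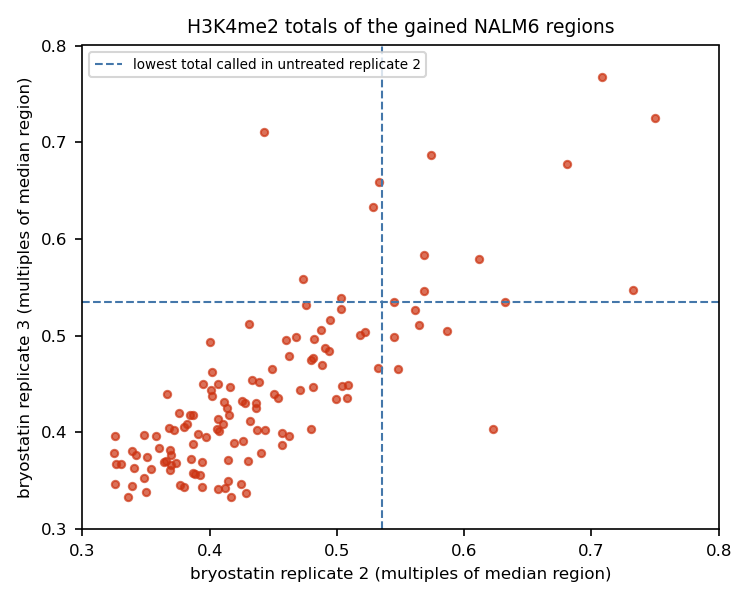
Totals of the 128 gained regions in bryostatin replicates 2 and 3, in multiples of the median tested region, with dashed lines at 0.535, the lowest total called in untreated replicate 2. In 8 regions both values are above the lines, and in 107 both are below.

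The strongest gained regions had totals near 0.7 of the median region. The start region of CCDC26, a long noncoding RNA gene, was at 0.708 and 0.767 in the treated libraries, with 5170 and 4390 bp called. A region at the pseudogene ENSG00000213016 (chr19:54520051-54524220) was at 0.750 and 0.726, and reads of a pseudogene and its parent copy may not be told apart. At PI16, which encodes a peptidase inhibitor (chr6:36953521-36956980), the totals were 0.681 and 0.677, and at FRMD4B, a scaffold with a FERM domain (chr3:69349981-69354400), 0.574 and 0.687. NHSL1, a regulator of actin, had 0.611 and 0.579 at its start. These 5 regions were each called over 3310 bp or more in both treated libraries.

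Other named gained regions lay at the starts of POLR1A, the largest subunit of RNA polymerase I, with PTCD3, and of TBL1XR1, a subunit of nuclear receptor corepressor complexes. WDR19, HAUS4, PHF14, SKIC8, LINC01415 and ENSG00000260498 also had one at the start. Intronic regions of ELF1, an ETS factor of lymphocytes (chr13:41004701-41008200, 0.443 and 0.711), SLC9A9 and BCAR3 were gained too. Of the remaining 4 regions, 1 lay over an exon of OR2V2, 1 in the noncoding gene ENSG00000227107, and 1 each 5495 bp from MSGN1 and 37170 bp from SMOX.

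The 46 regions above the common level included 37 at starts. Their highest mean totals, all in bryostatin replicates 2 and 3 without replicate 1, were at a Y RNA gene on chr9 (1.10 and 0.974), at the 5S ribosomal RNA genes on chr1 (0.541 and 1.66) and at CCT5, a chaperonin subunit (0.918 and 0.879). The 5S genes are near-identical copies, and reads cannot be placed among them with certainty. SCARB2 (0.886 and 0.788), MALAT1 (0.683 and 1.02), TK2 (0.737 and 0.817) and RPL4 (0.710 and 0.681) followed the same pattern, chosen after their values were seen. The 2 lost regions were intronic, in FOXO6 (0.574 and 0.592 in the untreated libraries) and ZC3H3 (0.536 and 0.542).

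Most gained regions carried a peak in other lines. REH, another precursor B leukemia line, had an H3K4me2 peak in at least 1 untreated library at 110 of the 128 (85.9%), and Raji, a Burkitt lymphoma line, at 98 (76.6%). The shares at the other 13210 regions were 86.9% and 75.8%. H3K4me3 was present in at least 1 untreated NALM6 library at 83 (64.8%), against 71.5% elsewhere. In Raji, peaks were in more libraries with the drug than without at 41 of the 128 (32.0%, 13.0% elsewhere) and in fewer at 0 (0%, 0.696% elsewhere). In REH they were in more at 8 (6.25%, 3.86% elsewhere) and in fewer at 43 (33.6%, 9.59% elsewhere). For H3K4me3 in NALM6 they were in more at 0 (0%, 2.95% elsewhere) and in fewer at 55 (43.0%, 25.5% elsewhere). Bryostatin replicate 3 had an H3K4me3 peak at 11 of the 128, against 49 and 79 in bryostatin replicates 1 and 2. Untreated replicates 1 to 3 had one at 36, 76 and 83. For H3K4me2 in REH the counts were 114, 90 and 46 in bryostatin replicates 1 to 3 and 110, 96 and 81 in the untreated ones. The part of single libraries was not tested. Raji untreated libraries had 6.70 to 13.9 M mapped reads and treated ones 15.6 to 18.8 M, and the part of depth there was not tested. The repressive mark H3K27me3 was called in NALM6 at 4 of the 128 without drug (3.12%, 10.6% elsewhere) and 11 with it (8.59%, 22% elsewhere). All 11 were called in bryostatin replicate 3, against 0 and 4 in bryostatin replicates 1 and 2.

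The named signal regions were set beside REH and Raji, where 3 treated and 3 untreated H3K4me2 libraries each were available. FCMR had a positive change in all 3 lines, of 0.43 ± 0.09 (SE) in REH and 0.80 ± 0.22 in Raji on the log2 scale, and the adjusted p of the change was 0.0495 in REH and 0.273 in Raji. XBP1 was at -0.15 ± 0.13 in REH and 0.45 ± 0.17 in Raji, and PHF21A at -0.20 ± 0.07 and 0.04 ± 0.12. SMAD1 (0.03 ± 0.11) and DNTT (-0.10 ± 0.09) were tested in REH and not in Raji, where they were not called in all libraries. NUP153 was at 0.07 ± 0.08 in REH and 0.34 ± 0.25 in Raji, PAG1 at 0.09 ± 0.14 and 0.23 ± 0.21, and PKD2 at 0.42 ± 0.21 and 0.13 ± 0.16.

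The response differed between NALM6 and REH in 40 of 7712 regions tested with an interaction term (0.519%, limma, adjusted p under 0.05), 11 higher and 29 lower in NALM6. Among the named regions these were SMAD1 (difference in log2 change 1.15 ± 0.17 SE, adjusted p = 0.00741), XBP1 (1.09 ± 0.20, 0.0218), PHF21A (0.91 ± 0.12, 0.00299), NUP153 (0.79 ± 0.13, 0.0108) and DNTT (0.71 ± 0.14, 0.0287). GSE1 (-0.91 ± 0.16, 0.0175), FGF18 (-0.77 ± 0.13, 0.0162) and NKAIN4 (-0.74 ± 0.15, 0.0335) were lower in NALM6. At 26 of the 29 lower regions the REH change was positive, with a median of 0.78 against -0.35 in NALM6. Over all 7712 regions 45.0% had a positive REH change, with a median of -0.01. The 29 were chosen by this same difference, so unlike signs in the 2 lines follow in part from the choice. Mean signal per base gave 2 regions that differed between NALM6 and REH, and the replicate block 169. NALM6 replicates 1 to 3 gave 0 of 3856, with 106 at an unadjusted p under 0.05. Without untreated replicate 2 of NALM6 there were 298, and without bryostatin replicate 2 or 3 there were 17 and 12. Between NALM6 and Raji 0 of 6560 regions passed in limma (0%), with 156 at an unadjusted p under 0.05 and a smallest adjusted p of 0.661. For SYK and IKZF1 the difference from REH had an adjusted p of 0.359 and 0.0963.

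**Figure D4:**
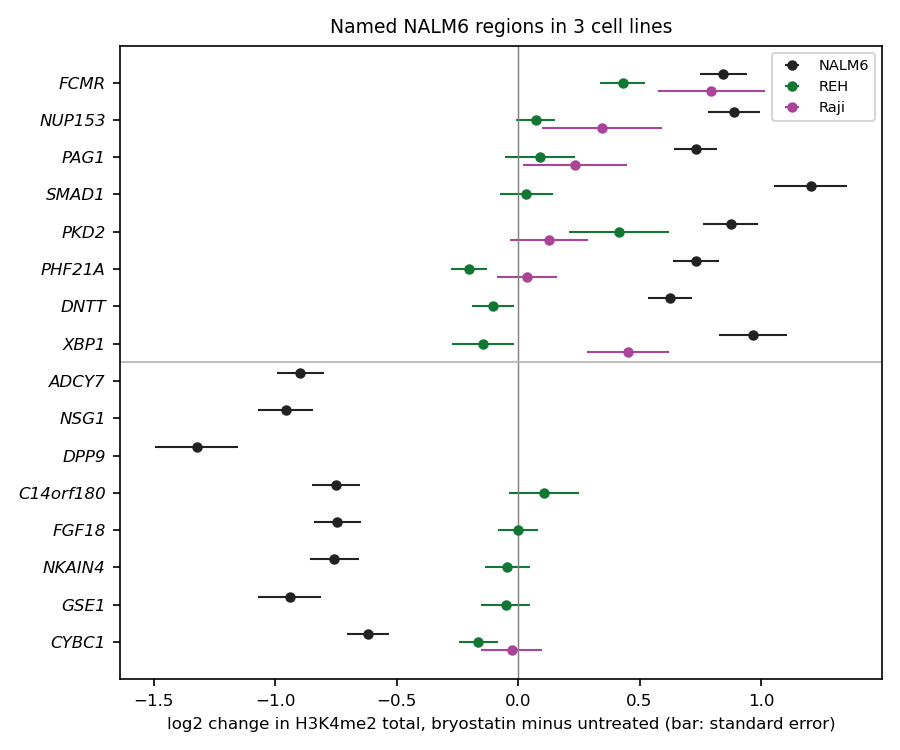
Log2 change in H3K4me2 total (bryostatin minus untreated, with standard error) at the 16 named NALM6 regions in NALM6, REH and Raji. Points are missing where a region was not called in all libraries of a line, and FCMR, NUP153, PAG1 and PKD2 lie to the right of 0 in all 3 lines.

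H3K4me3 of the same cells was fitted at 4305 regions, of which 0 passed in limma and 108 had an unadjusted p under 0.05. Replicates 2 and 3 were used there too. Among the higher starts, its log2 changes were 0.13 ± 0.13 (SE) at XBP1, -0.17 ± 0.11 at SMAD1, -0.07 ± 0.10 at NUP153, 0.09 ± 0.10 at PKD2, 0.10 ± 0.19 at PAG1 and -0.38 ± 0.20 at PHF21A. None of these had an unadjusted p under 0.05. FCMR and DNTT were not called in all 4 H3K4me3 libraries. Over replicates 1 to 3, the FCMR region had an H3K4me3 peak in 0 untreated and 0 treated libraries. The DNTT region had one in 3 untreated and 2 treated libraries. In H3K4me3, bryostatin replicate 3 had a peak at 4051 of the 8891 regions tested for H3K4me2. Bryostatin replicate 2 had one at 7250, and untreated replicates 2 and 3 at 7030 and 7428. Over the 4051 regions tested for both marks, the changes had Pearson's r = -0.21. The part of H3K4me3 bryostatin replicate 3 in it was not tested. The correlation is a description across regions, which are not independent replicates. Within a mark all points come from the same 4 libraries, and both marks are read over the same bases.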

How the data were processed

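Cut&Tag libraries were trimmed with Trim Galore, aligned to hg38 with Bowtie2 and scaled by RPKM by the authors, who ran SEACR separately on every library. Deposited signal is the total and the maximum of that coverage over each peak. The tables list peaks only, so a region without a peak has no value, and the lowest total called differs between libraries. The NALM6 replicate 1 files use another, unstated scaling.

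Peaks on chromosomes 1 to 22, X and Y were merged, and the median log2 total over the regions found in all 4 libraries of replicates 2 and 3 was subtracted. The test was limma 3.58.1 (R 4.3.3, trended eBayes, Benjamini-Hochberg threshold 0.05). Differences between lines were tested with an interaction term. Mapped reads were derived from the RPKM step of the 10 bp bins, and 100% of peak heights were whole multiples of it within 0.05 steps. GENCODE 44 gave genes, and a start region lies within 1 kb of a start. The named regions were the 20 gained regions with the highest mean treated total, and the 8 regions on each side with the smallest p among those whose groups do not overlap. Of each gene list the 2 members with the largest absolute change were named, together with members of interest to the study. Regions, members and lists were chosen with earlier results of these data known. The fit was tested on simulated data with an equal normal spread in all 4 libraries, where 4 of 103 calls were false. Differences between libraries in depth and GC content were not simulated. The labels give both groups the same replicate numbers. Over all 6 libraries the deviations of same-numbered libraries from their group mean had correlations of 0.45, 0.40 and 0.44. Replicate 1 of both groups is on its own scale, which enters each of these values, so they cannot show a pairing. Over replicates 2 and 3 alone the correlation was 0.17. Whether same-numbered libraries were paired is not known, and values with the replicate block are given where they change a call. IgG libraries were not used here.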

Additional observations from a re-analysis of the deposited data

Results flagged for a closer look

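The change with bryostatin differed between NALM6 and REH in 40 regions by the interaction test. Among the named regions, the difference in log2 change (NALM6 minus REH) was 1.15 at SMAD1, 1.09 at XBP1, 0.91 at PHF21A, 0.79 at NUP153 and 0.71 at DNTT. It was -0.91 at GSE1, -0.77 at FGF18 and -0.74 at NKAIN4. Of the regions at starts named here after their values were seen, SH3BP2, an adaptor that binds SYK, had a difference of -1.87, with log2 changes of -0.90 in NALM6 and 0.97 in REH. The region at IGLC7 differed by -1.69 and that at DPEP1, a membrane dipeptidase, by -1.58. PTPN7, a phosphatase that acts on ERK, differed by -1.56, with a change of -0.02 in NALM6 and 1.53 in REH. A region at a start within PIK3AP1, an adaptor of phosphoinositide 3-kinase, differed by -1.44, with -0.43 in NALM6 and 1.01 in REH. REH untreated libraries had 13.7 to 18.8 M mapped reads and treated ones 18.2 to 22.8 M, and untreated replicate 3 of NALM6 had 8.24 M. The part of depth in these differences was not tested.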

How the results depend on the processing

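No region passed in limma with mean or maximum signal, in the upper 0.5 of regions, without the eBayes trend, with all 6 libraries (4128 regions) or with the GC correction. Higher and lower calls were 23 and 2 without centring, which moved the median change to 0.20, 32 and 59 with quantile normalization, 29 and 66 for regions called in at least 3 of 4 libraries, and 34 and 135 with the replicate block. Leaving out 1 library gave 0 to 734 higher and 0 to 974 lower calls, the most without untreated replicate 2, and 84 and 77 without untreated replicate 3. Gained and lost regions were 25 and 25 with equal peak numbers, 236 and 0 in windows of 1 kb, 83 and 0 in the upper 0.5 of peaks, 1081 and 4 with replicates 2 and 3 alone, and 46 and 2 above the common level. Leaving out 1 library gave 143 to 956 gained and 0 to 7 lost regions, with 956 without bryostatin replicate 1 and 328 without untreated replicate 3. Against REH 40 regions became 2 with mean signal, 10 with maximum signal, 169 with the replicate block, 0 with NALM6 replicates 1 to 3 and 55 without centring, and 12 to 298 with 1 library left out, the highest without untreated replicate 2 and the lowest without bryostatin replicate 3. Against Raji the count was 0 throughout. The difference in genes with a start peak was 5.23 percentage points, -0.48 without untreated replicate 1, 5.23 in the paired test (exact p = 0.25), and -0.48 to 12.7 with 1 library left out.

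Of the 16 named regions, chosen so that their groups do not overlap, those whose log2 change had the other sign under a setting were, for mean signal, FCMR (-0.083), NUP153 (-0.74), PAG1 (-0.30), PKD2 (-0.34), XBP1 (-0.49) and FGF18 (0.52), and for maximum signal, DNTT (-0.17), XBP1 (-0.14) and CYBC1 (0.092). Totals add height and called length, so these settings read another quantity, and the cause of the other shifts was not tested. Arms with 1 library left were fitted with the spread of the other group.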
